A study of Mus musculus with 17 samples.

Results

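Leukocytes leave the blood mainly through venules, and the genes described here code for proteins that the endothelium of these vessels displays, stores or uses as junctions. There are 9 of them, Selp, Sele, Ackr1, Icam1, Vcam1, Madcam1, Vwf, Pecam1 and Cdh5, among 37325 gene or transcript names on the array, and 8 of the 9 could be tested (all but Sele). They were chosen by their function together with measured values, namely the levels of Selp and Ackr1 under PCN in these same arrays. The differences between PCN and control mice are therefore given as descriptions without a test, and the comparison of the genotypes among control mice is the tested one. The arrays were read by gene name, with all 3 probes of Selp, and with the probe of the highest mean in the authors' table for each other gene except Ackr1, for which the rule fixed the probe A_52_P110052 although its other probe was brighter.

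RNA came from the colon of male mice on the C57Bl6/J background, killed at zeitgeber time 6, which is 6 h after the last injection. WT CONT mice (n = 4 arrays) were wild-type and received corn oil alone for 4 days, and WT PCN mice (n = 4) received 100 mg/kg of PCN in that oil each day. Pxr-/- CONT (n = 5) and Pxr-/- PCN (n = 4) were the same treatments in mice with a deletion of the pregnane X receptor (PXR), a nuclear receptor that responds to foreign compounds. PCN, pregnenolone 16α-carbonitrile, is a ligand of rodent PXR. WT mice were bought at 6 weeks of age, while Pxr-/- mice came from the laboratory's own colony, so that colony and genotype cannot be told apart. The paper states an age for the bought mice only, and 2 weeks of acclimatisation for the mice in general. All groups shared the intraperitoneal injections of corn oil. The study allocated 6 mice to each group, and 4 or 5 arrays of each were analysed here.

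The steps of leukocyte exit give these genes their roles. P-selectin (Selp) and E-selectin (Sele) let leukocytes roll, the atypical receptor Ackr1 carries chemokines across the venule wall without signalling to the cell, and the ligands of integrins (Icam1, Vcam1, Madcam1) hold the arrested cell. P-selectin and von Willebrand factor (Vwf) are stored together in Weibel-Palade bodies, secretory granules of the endothelium, and platelets carry both as well. Pecam1 and VE-cadherin (Cdh5) sit in the junctions between endothelial cells of all vessel types and so also follow the amount of endothelium in a tissue sample.

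The signals below rest on probes of 60 bases. The sequences of 5 of them are shown, 5′ to 3′. Those of Ackr1 and Madcam1 carry the main values of these genes, and those of Selp and Icam1 are further probes against which the main ones are set. The array files place both Selp probes on the plus strand of chromosome 1 in build mm9, A_52_P57843 at chr1:166071558-166071617 and A_66_P116477 further downstream at chr1:166074040-166074099. The third Selp probe, A_51_P211854, lies downstream of both at chr1:166079660-166079719 and is the one with the highest mean in the authors' table. The Ackr1 probe A_52_P110052 is on the minus strand at chr1:175262282-175262341, the Icam1 probe A_52_P613241 at chr9:20832290-20832349, and the Madcam1 probe A_51_P517745 at chr10:79127883-79128194, a longer stretch than the probe itself. The files give no exon or intron for them.
Selp A_52_P57843: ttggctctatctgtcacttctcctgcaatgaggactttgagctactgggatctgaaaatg
Selp A_66_P116477: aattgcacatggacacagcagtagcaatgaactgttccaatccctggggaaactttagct
Ackr1 A_52_P110052: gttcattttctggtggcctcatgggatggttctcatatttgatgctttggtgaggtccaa
Icam1 A_52_P613241: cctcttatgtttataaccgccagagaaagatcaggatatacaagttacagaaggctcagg
Madcam1 A_51_P517745: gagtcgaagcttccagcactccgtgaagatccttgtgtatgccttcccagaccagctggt

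The share of probes well above background ran from 62.7% to 71.0% over the arrays. Over all probes, 2 pairs of arrays under different labels were nearly identical. WT PCN replicate 4 and Pxr-/- PCN replicate 2 differed with an SD of 0.172 on the log2 scale, and WT PCN replicate 3 and Pxr-/- CONT replicate 2 with an SD of 0.198, whereas all other pairs of arrays lay between 0.298 and 0.616. The main results are therefore given with all 17 arrays and with the 13 others, of which 2 are WT PCN and 3 are Pxr-/- PCN. Whether labels were exchanged, or whether fewer than 17 mice stand behind the arrays, was not tested. The probe for Nr1i2, which codes for PXR, was read between 10.39 and 11.61 on the arrays labelled Pxr-/- CONT and between 11.97 and 12.31 on those labelled WT CONT. Under PCN the labels overlapped, with 10.95 to 11.93 in Pxr-/- PCN and 11.10 to 12.44 in WT PCN. Where that probe lies relative to the deleted part of the gene was not checked, and a signal remained in every array labelled Pxr-/-.

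The RNA signal of Selp, the gene of P-selectin, was higher under PCN in both genotypes, and 1 array of WT PCN stood near the controls. The protein was not measured. With the probe A_51_P211854, the log2 signal of Selp was 6.25, 6.32, 6.26 and 6.54 in WT CONT replicates 2 to 5. In WT PCN replicates 1 to 4 it was 7.66, 7.40, 6.69 and 7.75. In Pxr-/- CONT replicates 1 to 5 it was 6.18, 6.47, 6.68, 6.18 and 6.05, and in Pxr-/- PCN replicates 1 to 4 it was 7.50, 7.80, 7.79 and 7.76. Within each genotype every PCN array was above every control array. WT PCN replicate 3, near-identical with an array labelled Pxr-/- CONT, was the lowest of the PCN arrays and lay close to the highest array of Pxr-/- CONT.

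**Figure D1:**
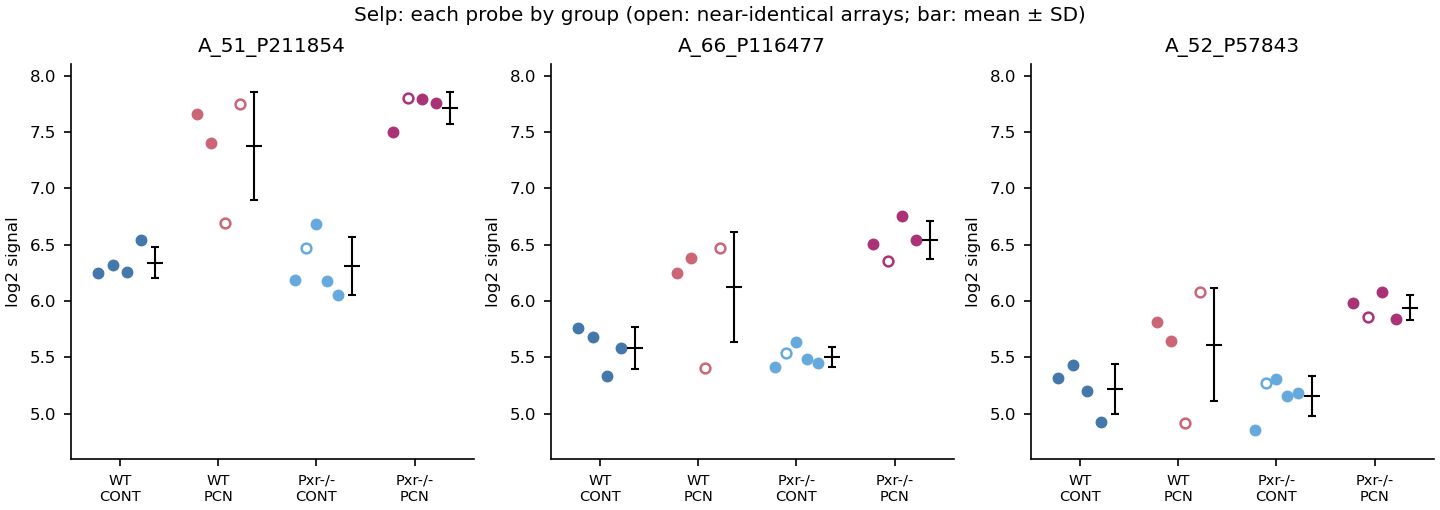
Log2 signal (vertical axis) of the 3 Selp probes on each array, by group (horizontal axis). Filled points are single arrays, open points the 4 near-identical arrays, and bars the mean ± SD of a group. All 3 probes are higher in Pxr-/- PCN than in Pxr-/- CONT without overlap, and the low open point in WT PCN is replicate 3. A_52_P57843 was not well above background on any control array.

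The fitted difference of Selp between PCN and CONT was 1.40 ± 0.19 (SE) on the log2 scale in Pxr-/- mice, a 2.63-fold higher signal, and 1.03 ± 0.20 in WT mice, a 2.05-fold higher signal. Without the 4 near-identical arrays the differences were 1.42 ± 0.15 and 1.19 ± 0.17. The excess in Pxr-/- over WT was 0.36 ± 0.27, and 0.23 ± 0.23 without the 4 arrays, so the estimates in the genotypes lay within 2 SE of each other. Within the 2 wash batches taken singly, the difference in Pxr-/- mice was 1.36 ± 0.31 and 1.39 ± 0.17, and that in WT mice 0.99 ± 0.29 and 1.26 ± 0.23. The second WT value rests on 1 WT PCN array, replicate 1, whose spread is assumed to be that of the other groups. In whole tissue, fewer cells of a type and less RNA per cell cannot be told apart, and this holds for every value given here.

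Of the upstream Selp probes, A_52_P57843 was at background in both control groups and A_66_P116477 was near it, mainly in Pxr-/- CONT. Their differences therefore cannot be firmly set against that of the first probe in size. The signal of A_66_P116477 was 6.51, 6.35, 6.76 and 6.54 in Pxr-/- PCN and between 5.41 and 5.64 in Pxr-/- CONT, where it was well above background on 1 of 5 arrays. In WT CONT it lay between 5.33 and 5.76 and was well above background on 3 of 4 arrays. In WT PCN replicates 1 to 4 it was 6.25, 6.38, 5.41 and 6.47. The fitted difference was 1.03 ± 0.17 in Pxr-/- and 0.52 ± 0.19 in WT mice, the latter rising to 0.73 ± 0.09 without the 4 arrays. Both WT values were smaller than those of the first probe. A_52_P57843 was not well above background on any array of either control group, while it was on all 4 arrays of Pxr-/- PCN and on 3 of 4 of WT PCN (the exception was replicate 3). Set against the lowest signal that counted as above background on the control arrays, its mean was at least 1.56-fold higher in Pxr-/- PCN. The measured means were 5.94 against 5.16 in Pxr-/- mice and 5.61 against 5.22 in WT mice, where no bound is given because 1 PCN array was below background too. All 3 probes had a higher mean under PCN in both genotypes, but A_52_P57843 entered the fit through PCN arrays alone and so adds no support.

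A probe was called where the false discovery rate was at most 0.05 and the fold change over 1.5. For PCN in Pxr-/- mice 2 of 38703 probes, or 0.00517%, were called, among them A_51_P211854 of Selp, and 0% were called for PCN in WT mice. The Selp call remained in 3 of 17 fits that each left out 1 array, those without WT PCN replicate 3, WT PCN replicate 4 or Pxr-/- CONT replicate 3. Without the 4 near-identical arrays 20 probes (0.0517%) were called in Pxr-/- mice, among them all 3 probes of Selp and that of Ackr1. In WT mice 19 (0.0491%) were called, among them A_66_P116477 of Selp. The Selp probe A_52_P57843 passed the filter of 4 arrays through PCN arrays alone, so its call and its lack of overlap add no support. Nothing is read from these counts for the members, since PCN values chose them. Probes whose PCN arrays all lay above all CONT arrays made up 1.38% in Pxr-/- mice and 1.36% in WT mice, or 3.35% and 6.4% without the 4 arrays. By the main probe of each gene, Selp, Ackr1 and Icam1 were such genes in Pxr-/- mice, and Selp alone of the 8 in WT mice. The other Selp probes, A_66_P116477 and A_52_P57843, overlapped in WT mice, while A_52_P520495 of Vcam1 did not overlap in Pxr-/- mice. Without the 4 arrays these were again 3 of 8 in Pxr-/- mice and 3 of 8 in WT mice (Selp, Ackr1 and Vwf). There the other Vwf probes overlapped in WT mice, whereas all Selp probes and the second Icam1 probe did not.

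The RNA of Sele, the gene of E-selectin, could not be measured. Its single probe was not well above background on any of the 17 arrays, where its signal lay between 4.61 and 5.07, and no fold is given for it.

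Ackr1, which presents chemokines on venules, was also higher under PCN. Its log2 signal was 8.30, 8.41, 8.48 and 8.43 in WT CONT replicates 2 to 5 and 8.93, 8.82, 8.25 and 8.86 in WT PCN replicates 1 to 4. In Pxr-/- CONT replicates 1 to 5 it was 8.26, 8.30, 8.30, 7.98 and 8.18. In Pxr-/- PCN replicates 1 to 4 it was 8.82, 8.75, 8.92 and 8.96. All Pxr-/- PCN arrays stood above all Pxr-/- CONT arrays, while WT PCN replicate 3 lay below every WT CONT array, and the other 3 WT PCN arrays lay above them. The fitted difference was 0.67 ± 0.11 (SE) in Pxr-/- mice, 1.59-fold, and 0.34 ± 0.12 in WT mice, 1.26-fold. Without the 4 arrays it was 0.71 ± 0.09 and 0.46 ± 0.10. A second probe of the gene, A_55_P2904117, gave 0.56 ± 0.11 and 0.33 ± 0.12. Within the wash batches the Ackr1 difference was 0.70 ± 0.22 and 0.64 ± 0.10 in Pxr-/- mice and 0.29 ± 0.20 and 0.47 ± 0.14 in WT mice, the last again resting on WT PCN replicate 1 alone.

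Among the integrin ligands, Icam1 and Vcam1 had smaller differences than Selp. Icam1, which binds the β2 integrins of neutrophils and lymphocytes, was at 11.04, 10.83, 10.97 and 11.07 in Pxr-/- PCN replicates 1 to 4, above all 5 arrays of Pxr-/- CONT (10.35 to 10.74). In WT CONT it lay between 10.53 and 10.92 and in WT PCN it was at 11.32, 10.87, 10.38 and 10.78, so that these groups overlapped. The fitted difference was 0.45 ± 0.12 in Pxr-/- and 0.20 ± 0.13 in WT mice. Without the 4 arrays the WT value became 0.40 ± 0.10 and the Pxr-/- value 0.38 ± 0.09, with an excess in Pxr-/- of -0.01 ± 0.14. The second Icam1 probe, A_52_P613241, gave 0.36 ± 0.17 and 0.08 ± 0.18 with all arrays, and 0.32 ± 0.13 and 0.39 ± 0.14 without the 4.

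Vcam1, the ligand of α4 integrins on monocytes and lymphocytes, ranged from 9.79 to 10.19 in Pxr-/- CONT and was at 10.45, 10.38, 10.45 and 10.19 in Pxr-/- PCN. These groups met at their edges. In WT mice the controls spread from 9.80 to 10.44 and the PCN arrays from 9.95 to 10.81. The fitted difference was 0.44 ± 0.17 in Pxr-/- and 0.21 ± 0.18 in WT mice, and 0.45 ± 0.20 and 0.36 ± 0.23 without the 4 arrays. WT PCN replicate 1 carried most of the WT value, which was 0.00 without it. A second Vcam1 probe, A_52_P520495, gave 0.43 ± 0.21 in Pxr-/- and 0.06 ± 0.22 in WT mice, and 0.39 ± 0.25 and 0.17 ± 0.28 without the 4 arrays. On that probe all Pxr-/- PCN arrays stood above all Pxr-/- CONT arrays.

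Madcam1, the ligand of the gut-homing integrin α4β7 and a marker of venules in the lamina propria and lymphoid follicles, had opposite signs in the genotypes. Its signal was 6.78, 6.37, 6.90 and 6.99 in WT CONT replicates 2 to 5 and 6.64, 6.30, 6.71 and 6.50 in WT PCN replicates 1 to 4. In Pxr-/- CONT replicates 1 to 5 it was 5.96, 6.42, 6.50, 5.97 and 6.54, and in Pxr-/- PCN replicates 1 to 4 it was 6.83, 6.45, 6.51 and 6.40. The lowest group was Pxr-/- CONT, and the groups overlapped in both genotypes. The difference of PCN and CONT was 0.29 ± 0.15 in Pxr-/- and -0.18 ± 0.16 in WT mice, and 0.31 ± 0.19 and -0.29 ± 0.21 without the 4 arrays.

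Vwf, whose protein is stored with P-selectin, had smaller differences in RNA signal. The log2 signal of Vwf had group ranges of 10.83 to 11.12 in WT CONT, 10.86 to 11.24 in WT PCN, 10.80 to 11.23 in Pxr-/- CONT and 10.91 to 11.26 in Pxr-/- PCN. The fitted differences were 0.17 ± 0.10 in Pxr-/- and 0.11 ± 0.10 in WT mice, and the other 2 probes of Vwf gave 0.12 ± 0.10 and -0.14 ± 0.10 in Pxr-/- mice and -0.13 ± 0.11 and 0.07 ± 0.11 in WT mice. The sign thus depended on the probe.

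The junction genes were nearly level. Pecam1 lay between 7.96 and 8.25 in WT CONT, 7.89 and 8.02 in WT PCN, 7.78 and 8.06 in Pxr-/- CONT and 7.87 and 7.98 in Pxr-/- PCN. Its difference between PCN and CONT was 0.04 ± 0.08 in Pxr-/- and -0.16 ± 0.08 in WT mice. Cdh5 lay between 8.40 and 8.74 over all 17 arrays, with differences of 0.05 ± 0.07 and -0.05 ± 0.07.

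**Figure D2:**
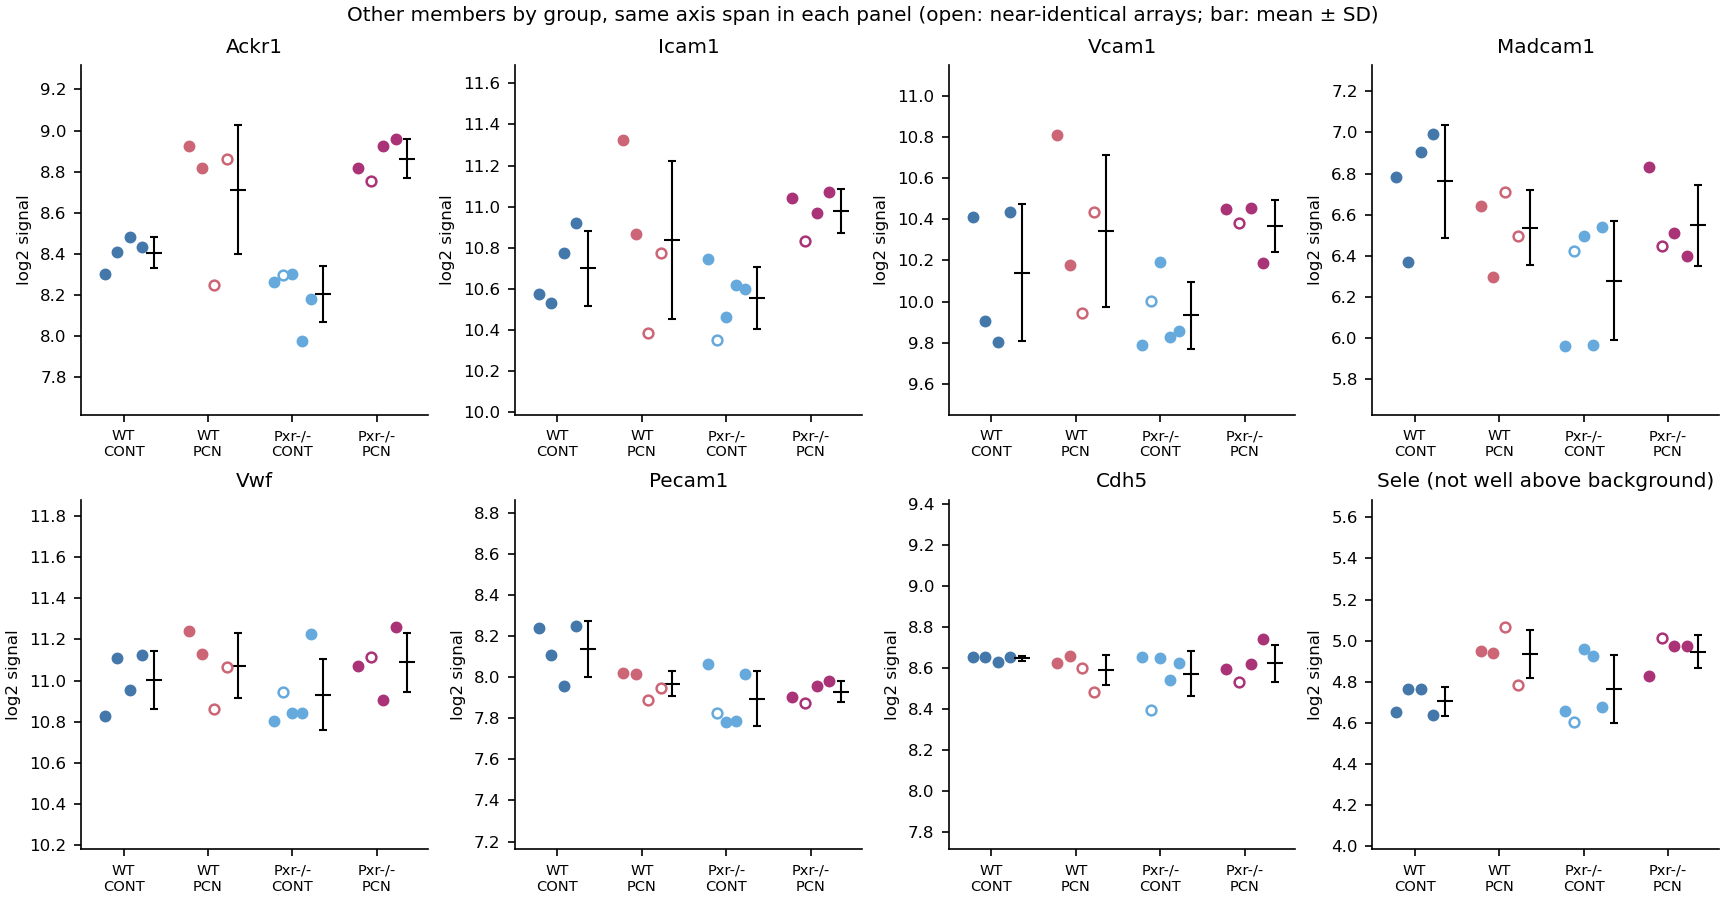
Log2 signal (vertical axis, the same span in every panel) of the other 8 genes on each array, by group (horizontal axis). Filled points are single arrays, open points the 4 near-identical arrays, bars the mean ± SD. Ackr1 and Icam1 in Pxr-/- PCN lie above Pxr-/- CONT without overlap, Cdh5 stays between 8.40 and 8.74, and Sele was not well above background on any array.

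Genotype among the control mice was the tested comparison, and none of the 8 genes was called. Over all probes 0% were called with limma, and 4913 of 38703 had an unadjusted p under 0.05. Each of the 8 had a lower estimate in Pxr-/- CONT than in WT CONT, with a median of -0.19 against 0.01 over 25029 genes. Of all these genes 52.5% had a higher estimate in Pxr-/- CONT. The 8 were read on the same control arrays, so their signs are not independent. The differences ranged from -0.03 ± 0.19 for Selp (adjusted p = 0.962) and -0.08 ± 0.07 for Cdh5 (adjusted p = 0.65) to -0.50 ± 0.15 for Madcam1 (adjusted p = 0.245, limma). Unadjusted p-values under 0.05 came from Madcam1 and from Pecam1, which had -0.25 ± 0.08 (adjusted p = 0.26, limma). Ackr1 had -0.21 ± 0.11 (adjusted p = 0.442, limma), with every Pxr-/- CONT array below every WT CONT array by a gap under 0.01. Its brighter probe A_55_P2904117 had -0.11 ± 0.11 (adjusted p = 0.677, limma). On that probe the groups overlapped, with 9.10 to 9.44 in Pxr-/- CONT and 9.25 to 9.52 in WT CONT. Probes lower in Pxr-/- CONT without overlap made up 3.02% of all tested, and 3.73% without the 4 arrays. Icam1 and Vcam1 had -0.17 ± 0.12 and -0.21 ± 0.17, and Vwf -0.09 ± 0.10. Without the 4 near-identical arrays again 0% of probes were called, and Madcam1 had -0.52 ± 0.17 (adjusted p = 0.351, limma). Within the wash batches Madcam1 had -0.35 ± 0.22 and -0.64 ± 0.21, and Pecam1 -0.39 ± 0.10 and -0.13 ± 0.14. This comparison shares its control arrays with both PCN comparisons.

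**Figure D3:**
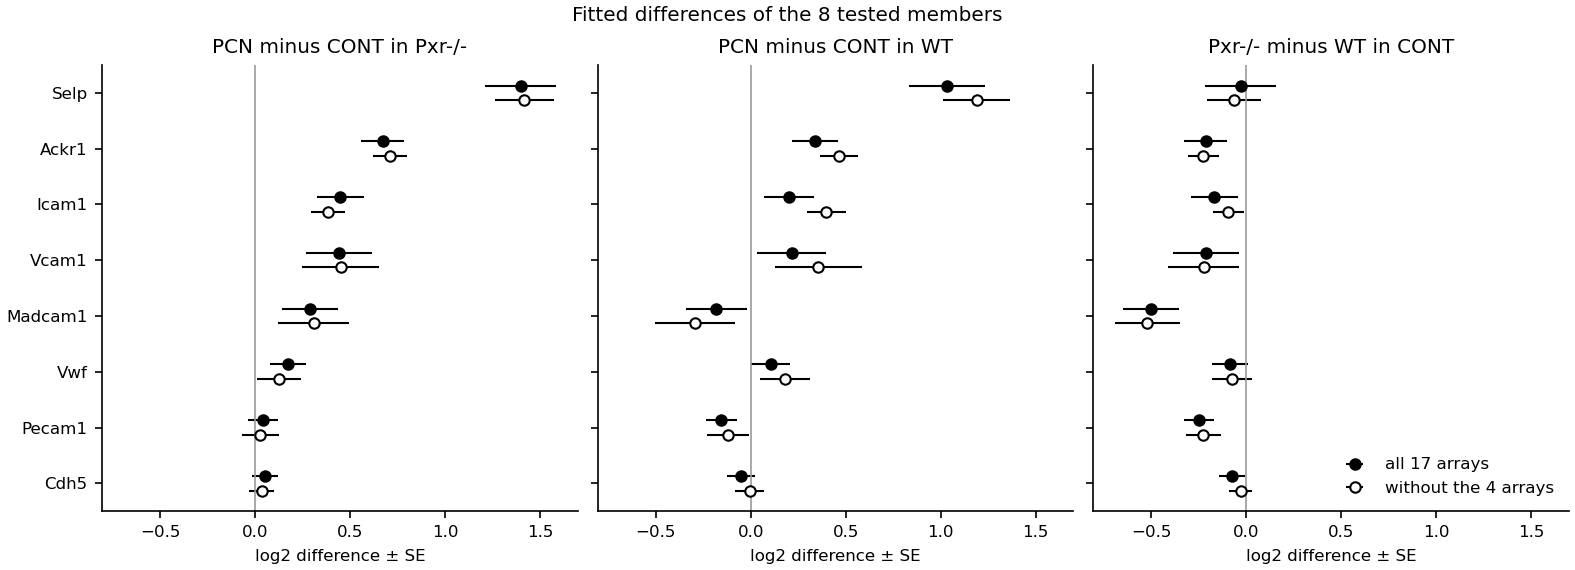
Fitted log2 differences ± SE (horizontal axis) of the 8 tested genes (vertical axis) for PCN in Pxr-/- mice, PCN in WT mice and genotype among controls. Filled points use all 17 arrays and open points leave out the 4 near-identical ones. Selp has the largest PCN difference in both genotypes (1.40 and 1.03), and Madcam1 the lowest genotype value (-0.50).

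In order of size, the PCN differences in Pxr-/- mice ran Selp, Ackr1, Icam1, Vcam1, Madcam1, Vwf, Cdh5 and Pecam1. Neighbours from Ackr1 onward lay within 2 SE of each other in that order, while Selp and Ackr1 lay further apart. All 8 estimates were above 0 in Pxr-/- mice, with a median of 0.36, and 5 of 8 in WT mice, with a median of 0.15. The medians over 25029 genes were 0.00 in both, and 51.2% of all genes were above 0 in Pxr-/- and 51.4% in WT mice. The excess of the PCN difference in Pxr-/- over WT was above 0 for all 8, with 0.33 ± 0.16 for Ackr1, 0.47 ± 0.22 for Madcam1 and 0.07 ± 0.14 for Vwf, and for 6 of 8 without the 4 arrays. It contains the levels of both control groups, and all 8 were lower in Pxr-/- CONT. For Madcam1 the means under PCN were 6.54 in WT PCN and 6.55 in Pxr-/- PCN. The low array WT PCN replicate 3 enters the WT side. The share of all genes with such an excess is not given, so nothing is read from the count.

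Array by array, Selp and Ackr1 went together. Pearson's r between them was 0.92 over 17 arrays and 0.94 over 13, and 0.80 for deviations from the group means. These values are descriptions over arrays that share groups, so r reflects mostly the gap between PCN and control arrays. For Icam1 and Vcam1, r with Selp was 0.67 and 0.72, for Vwf 0.45, for Madcam1 0.08, for Cdh5 -0.02 and for Pecam1 -0.19. The WT PCN array lowest in Selp, replicate 3, was also the lowest in Ackr1. It stood at 6.69 and 8.25, against WT PCN means of 7.38 and 8.71. The r of deviations leans on this 1 array, which is among the 4 near-identical ones, and was not computed without them.

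**Figure D4:**
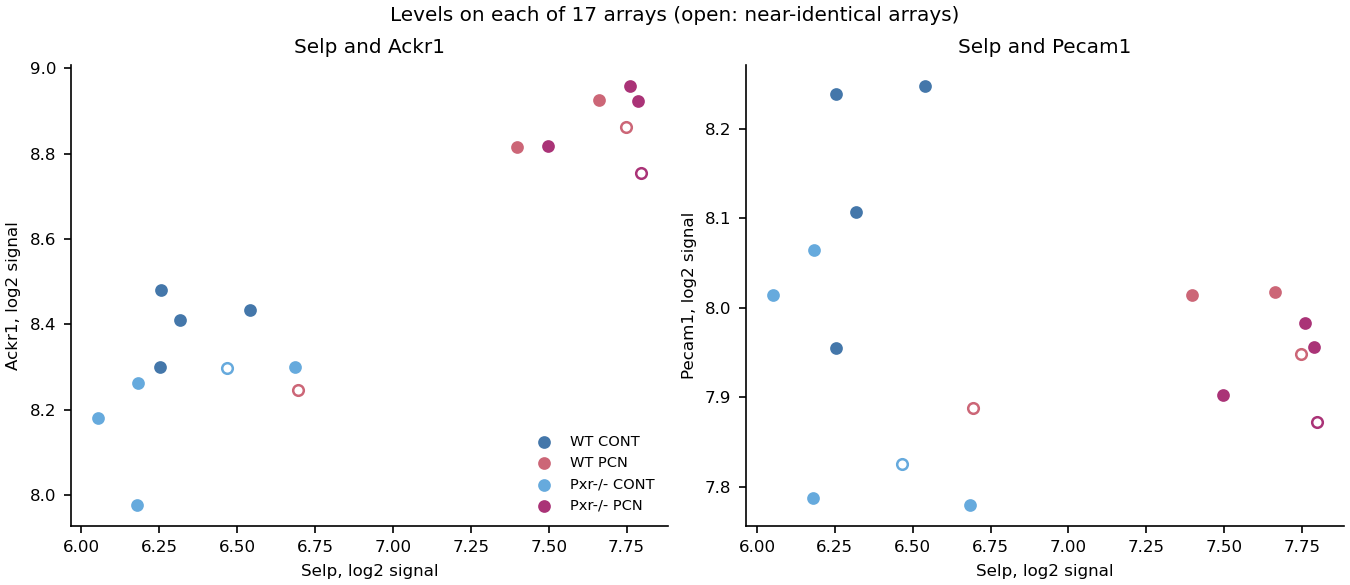
Log2 signal of Selp (horizontal axis) against that of Ackr1 or Pecam1 (vertical axis) on each of the 17 arrays, coloured by group, with the 4 near-identical arrays open. For Ackr1 the arrays fall into a low and a high cluster (r = 0.92), with WT PCN replicate 3 in the low one, and for Pecam1 r is -0.19.

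The genes most like Selp over the 17 arrays, by Pearson's r among 24995 genes, were Tnfrsf1a (a receptor of tumour necrosis factor, 0.94), Ackr1 (0.92), Il33 (an alarmin cytokine, 0.92), Myd88 (an adaptor of Toll-like and interleukin-1 receptors, 0.91), Ifitm1 (0.91), Serpina3n (a protease inhibitor, 0.91), Ccl2 (a monocyte chemokine, 0.89) and Osmr (the oncostatin M receptor, 0.88). Those most like Ackr1 were Serpina3n (0.95), Serpina3i (0.93), Ifitm1 (0.93), Il33 (0.93) and Osmr (0.92). Over 13 arrays these genes kept r between 0.89 and 0.96 with the gene they were matched to. The sizes differed widely. The PCN difference in Pxr-/- mice was 0.33 ± 0.09 for Tnfrsf1a and 0.27 ± 0.08 for Myd88. It was 1.63 ± 0.35 for Il33, 1.63 ± 0.32 for Serpina3n and 1.93 ± 0.41 for Ccl2. In WT mice these were 0.29 ± 0.10, 0.23 ± 0.09, 1.34 ± 0.38, 0.92 ± 0.35 and 1.38 ± 0.44.

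The 7 chemokines on the list of Ackr1 ligands were all tested. All 7 had estimates above 0 under PCN in both genotypes, with medians of 1.197 in Pxr-/- and 0.85 in WT mice against 0.00 for all genes, and 0 were called. Without the 4 near-identical arrays 5 of 7 were above 0 in Pxr-/- mice (median 1.21) and 6 of 7 in WT mice (median 1.61). Ccl5 and Ccl11 had 0.13 ± 0.58 and 0.10 ± 0.18 in Pxr-/- mice, within 1 SE of 0. Without the 4 arrays both were below 0 there, and Ccl5 had -0.47 ± 0.62 in WT mice. Cxcl2 was well above background on 0 of 5 arrays of Pxr-/- CONT and 3 of 4 of Pxr-/- PCN. For WT CONT and WT PCN these were 1 of 4 and 2 of 4, so its differences are partly against background. Cxcl5, which attracts neutrophils, lay between 5.71 and 6.33 in Pxr-/- CONT and between 8.25 and 9.28 in Pxr-/- PCN, and had differences of 2.75 ± 0.60 in Pxr-/- and 1.82 ± 0.64 in WT mice. Without the 4 arrays these were 2.69 ± 0.27 and 2.92 ± 0.31, and Cxcl5 was then called in both. Ccl2 lay between 8.68 and 9.43 in Pxr-/- CONT and between 10.70 and 11.26 in Pxr-/- PCN. The mean log2 signal of the list lay between 9.19 and 9.49 in Pxr-/- PCN, above the 8.12 to 8.41 of Pxr-/- CONT and the 8.20 to 8.69 of WT CONT, and between 8.31 and 9.76 in WT PCN. Its r with Selp was 0.94 and with Ackr1 0.91.

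Of 10 cytokines that act on venules, 8 were tested (Il1a and Il13 were not well above background on enough arrays) and 0 were called with all arrays. Il6, a driver of acute inflammation, had 1.31 ± 0.35 in Pxr-/- and 1.31 ± 0.38 in WT mice, and Osm, a cytokine that acts through Osmr, 0.85 ± 0.27 and 0.72 ± 0.29. Il6 was well above background on 1 of 5 arrays of Pxr-/- CONT, all 4 of Pxr-/- PCN and 3 of 4 in each WT group, so its differences are partly against background. Il1b had 0.82 ± 0.30 and 1.07 ± 0.32, and was called in WT mice without the 4 arrays (1.79 ± 0.16). Tnf had 0.26 ± 0.42 in Pxr-/- and -0.37 ± 0.45 in WT mice, where Lta (-0.43 ± 0.35) and Ltb (-0.56 ± 0.41) were below 0 too. All 8 were above 0 in Pxr-/- mice and 5 of 8 in WT mice. Without the 4 arrays Tnf had 0.42 ± 0.44 in WT mice. The median of the list was 0.34 in Pxr-/- and 0.27 in WT mice, and 0.26 and 0.47 without the 4 arrays.

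Of 11 genes that respond to NF-kB, 8 in Pxr-/- and 4 in WT mice had estimates above 0, with medians of 0.16 and -0.01, and 0 were called. Without the 4 arrays 8 of 11 were above 0 in both genotypes, with medians of 0.16 and 0.06. Tnfaip2 had 0.80 ± 0.23 and 0.28 ± 0.25, and Relb, a subunit of NF-kB, 0.43 ± 0.12 and -0.12 ± 0.13. The inhibitor gene Nfkbia had 0.16 ± 0.19 and 0.04 ± 0.20. Among 10 genes of Weibel-Palade bodies, the granules that hold P-selectin, 2 were above 0 in Pxr-/- mice and the median was -0.14, with Myrip at -0.79 ± 0.44 and Edn1, which codes for endothelin 1, at 0.71 ± 0.41. In WT mice the median was 0.10 with all arrays, and its sign turned without the 4 arrays (-0.07).

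On the leukocyte side, the 11 counter-receptors had medians of -0.04 in Pxr-/- and 0.05 in WT mice and 0 calls. The β2 integrin subunit Itgb2 had 0.61 ± 0.30 in Pxr-/- and 0.33 ± 0.32 in WT mice, and Selplg, the main ligand of P-selectin, had 0.09 ± 0.17 and 0.13 ± 0.18. Of 9 genes for the enzymes that build selectin ligands 0 were called, with St3gal4 at -0.66 ± 0.23 and Gcnt1 at 0.42 ± 0.36 in Pxr-/- mice and a median of 0.03. The 11 other adhesion and junction genes of the endothelium had a median of -0.10 in Pxr-/- mice, with Jam3 at -0.21 ± 0.09 and Podxl at -0.19 ± 0.22. In WT mice their median was -0.02, and 0.10 without the 4 arrays.

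Markers of the endothelium as a whole stayed within a narrow range, and their r with Selp was -0.36. For 12 pan-endothelial markers the mean log2 signal lay between 9.95 and 10.02 in WT CONT, 9.79 and 9.91 in WT PCN, 9.85 and 9.99 in Pxr-/- CONT and 9.79 and 10.01 in Pxr-/- PCN, so that WT PCN lay below WT CONT. Their median PCN difference was 0.01 in Pxr-/- and -0.11 in WT mice, with Robo4 at -0.23 ± 0.09 and Cldn5 at -0.22 ± 0.14 in Pxr-/- mice. Of the 5 venous markers 4 were above 0 in Pxr-/- mice (median 0.03), and Lrg1, which is also made by neutrophils and liver, had 0.93 ± 0.35 and Tspan7 0.18 ± 0.15. The medians of the arterial, capillary and lymphatic markers in Pxr-/- mice were -0.10, -0.04 and 0.11. Among these, Gja5 had -0.79 ± 0.47, Bmx -0.43 ± 0.19, Car4, which colonocytes express too, 0.44 ± 0.38, Rgcc -0.12 ± 0.20, Pdpn 0.49 ± 0.21 and Ccl21a 0.31 ± 0.17. The endothelial transcription factors had a median of 0.05, with Klf2 at -0.34 ± 0.18 and Klf4, which the epithelium shares, at -0.30 ± 0.10.

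Markers of other cell types moved with Selp and Ackr1, and their part in the result was not tested. The mean of 8 neutrophil markers lay between 8.03 and 8.36 in Pxr-/- CONT and between 9.14 and 9.78 in Pxr-/- PCN, and between 8.44 and 8.96 in WT CONT and 8.33 and 10.31 in WT PCN. Of the 8, 6 were above 0 in Pxr-/- mice, led by S100a9 (3.81 ± 0.72) and S100a8 (3.59 ± 0.72), which inflamed epithelium can make too. In WT mice these were 2.44 ± 0.77 and 2.40 ± 0.77, and without the 4 arrays both were called in Pxr-/- mice and S100a8 in WT mice. The defining neutrophil markers Ly6g and Csf3r had 0.88 ± 0.82 and -0.05 ± 0.06 in Pxr-/- mice, while Retnlg had 1.52 ± 0.33. Cxcr2 was well above background on 1 of 5 arrays of Pxr-/- CONT and all 4 of Pxr-/- PCN, and Mpo on 0 of 5 and 2 of 4. The list's r was 0.84 with Selp and 0.89 with Ackr1.

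Platelets hold P-selectin, so their markers are set beside it. Of 8 platelet and megakaryocyte markers 6 were tested (Gp1ba and Gp9 were not well above background on enough arrays), and 5 were above 0 in Pxr-/- and 6 in WT mice, with a median of 0.25 in both. Gp1bb had 0.45 ± 0.25 and Pf4 0.24 ± 0.27 in Pxr-/- mice. Ppbp was well above background on 0 of 5 arrays of Pxr-/- CONT and 1 of 4 of WT CONT, against 3 of 4 in each PCN group. The mean of the list lay between 6.77 and 6.91 in Pxr-/- CONT and between 6.98 and 7.15 in Pxr-/- PCN, and between 6.81 and 7.05 in WT CONT and 6.88 and 7.48 in WT PCN, with an r of 0.73 with Selp. Red cells carry Ackr1 in some species, and all 4 of their tested markers had estimates below 0 in both genotypes (median -0.61 in Pxr-/- and -0.63 in WT mice), with Hba-a1 at -0.87 ± 0.49 and Hbb-b1 at -0.68 ± 0.42 in Pxr-/- mice.

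**Figure D5:**
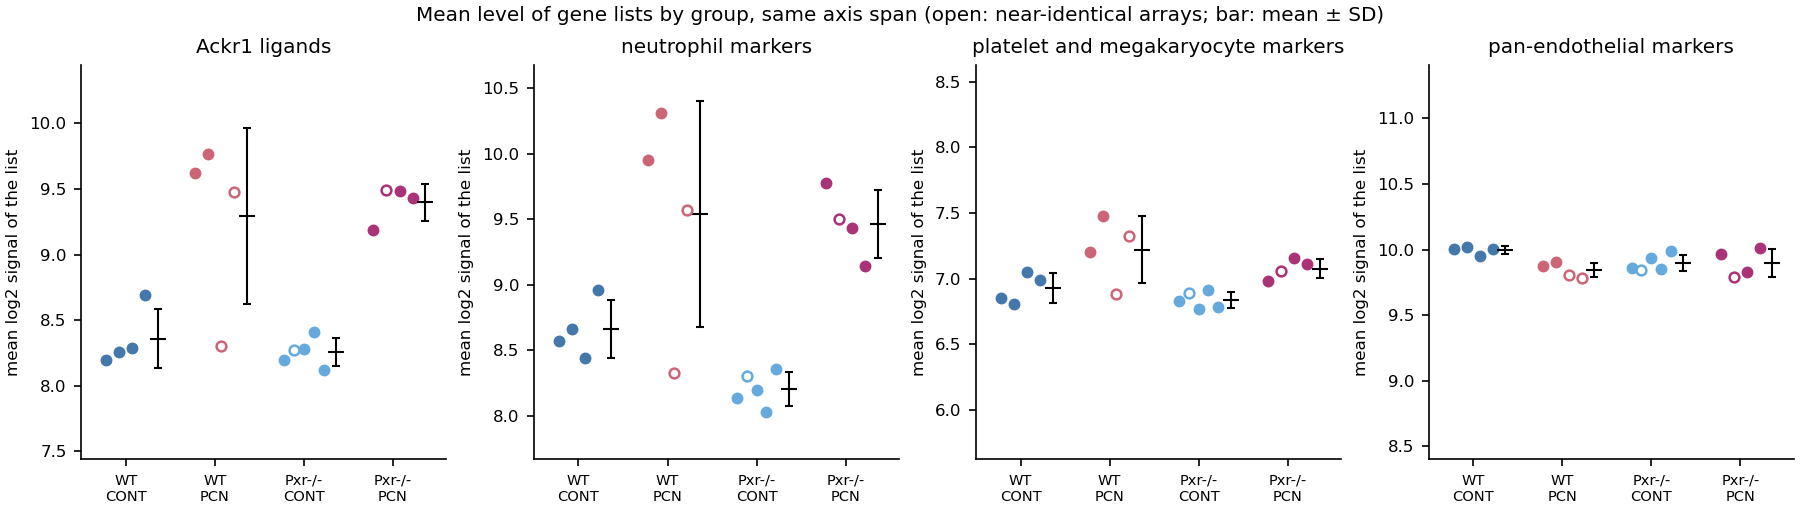
Mean log2 signal (vertical axis, the same span in every panel) of the genes of 4 lists on each array, by group (horizontal axis). Filled points are single arrays, open points the 4 near-identical arrays, bars the mean ± SD. Ackr1 ligands and neutrophil markers lie higher in Pxr-/- PCN than in Pxr-/- CONT without overlap, and pan-endothelial markers stay between 9.79 and 10.02.

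Madcam1 stood beside markers of lymphoid follicles, which varied widely between arrays. All 7 follicle markers had lower estimates in Pxr-/- CONT than in WT CONT (median -0.996, 0 called), and their mean had a median of 9.57 over the arrays of WT CONT and of 8.61 over those of Pxr-/- CONT. The median for PCN was 0.41 in Pxr-/- and -1.13 in WT mice (0.15 and -1.16 without the 4 arrays), the same signs as those of Madcam1, with Cxcl13 at 0.58 ± 0.46 and Ms4a1 at 0.56 ± 0.94 in Pxr-/- mice. The r of the list with Madcam1 was 0.47. It was as high with Vcam1 (0.48), and 0.17 with Icam1, 0.04 with Ackr1 and -0.05 with Selp. Whether the amount of follicle in a sample has a part in the Madcam1 values was not tested.

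The colon sections differed in other tissue as well. Colon epithelium markers were read high on all arrays, with list means between 15.17 and 15.76, and had a PCN median of -0.17 in Pxr-/- mice (Aqp8 -0.83 ± 0.50, Car1 0.33 ± 0.63). The 6 smooth muscle markers were all below 0 in Pxr-/- mice (median -0.41, Des and Actg2 both -0.46), as were 7 of 8 markers of enteric neurons and glia (median -0.37, Uchl1 -0.63 ± 0.20, Ret -0.60 ± 0.16). In WT mice all 6 and all 8 of these were above 0, with medians of 0.15 and 0.10. Adipocyte markers had medians of -0.64 in Pxr-/- and -0.99 in WT mice (Adipoq -1.04 ± 0.66 and Retn -0.85 ± 0.52 in Pxr-/- mice). Pancreas markers spanned means of 6.50 to 17.46 and liver markers of 6.76 to 12.16 over the arrays. In Pxr-/- mice Cela2a had -2.20 ± 2.91, Alb -0.39 ± 1.02 and Serpina1a 0.42 ± 1.07. Prss2 was well above background on 1 of 5 arrays of Pxr-/- CONT and 0 of 4 of Pxr-/- PCN. The r of Selp with the pancreas and liver lists was -0.23 and 0.04, and with smooth muscle -0.33.

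Promoters of 5 of the 9 genes (Selp, Sele, Ackr1, Icam1 and Madcam1) were in the RefSeq table of build GRCm38.p6, from 250 bases before to 50 after the start. The letters GGNNNTTCC, a pattern like the NF-kB site, were searched on both strands (GGAANNNCC on the other). All 5 held at least 1 match, and so did 18.5% of 32851 promoters of the same length. The 5 genes were chosen and not drawn at random, so nothing is read from their share. A match is a description of letters, and whether NF-kB has a part in the PCN differences was not tested. Windows of 30 bases are shown 5′ to 3′ on the gene's strand with the match in capitals, because they allow the promoters to be compared. The Selp match starts 14 bases before the start (chr1:164115234-164115263), that of Ackr1 131 bases before (chr1:173333615-173333644, minus strand) and that of Sele 145 bases before (chr1:164048079-164048108). The upstream match of Icam1 starts 153 bases before (chr9:21015777-21015806) and that of Madcam1 83 bases before (chr10:79664466-79664495), and each of these had a further match.
Selp: acaggccaactttaggGGAAAGGCCgtgat
Ackr1: cttcaaaacaGGAAGCCCCaggatggtgcc
Sele: ttaactcagtGGATATTCCcagaaaacttt
Icam1: acttcagtttGGAAATTCCtagatcgcagg
Madcam1: ggtcgggctgGGAAAGCCCcctgggaaagt

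Of the matches shown, that of Sele reads GGNNNTTCC on the gene's strand, those of Selp, Ackr1 and Madcam1 read it on the other, and that of Icam1 on both. The letters AGATAA, as in GATA sites, were found near the start of Ackr1 alone of the 5 (11.2% of all promoters), and AGGAAG, as in sites of ETS factors, in Selp, Ackr1, Sele and Madcam1 (35.4% of all promoters). An AGGAAG match of Ackr1 overlaps its GGNNNTTCC match.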

How the data were processed

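Mouse colon RNA was read on 17 arrays of 1 colour. The authors deposited scanner output (Agilent Feature Extraction 10.10.1.1, per the labels), in which the intensity of a spot is the median brightness of its pixels, not normalized between arrays, and a table of log2 values, deposited as processed by the authors. Outlier spots were left out, log2 of the median intensity was quantile-normalized and spots of a probe were averaged (56605 probes). The 38703 probes that exceeded background by the scanner's flag on 4 arrays or more entered the fit. limma 3.58.1 in R 4.3.3 fitted the 4 groups and the wash batch given in the labels (lmFit, contrasts.fit, eBayes, Benjamini-Hochberg), which was tested on simulated data. For lists, each gene was represented by its brightest probe. P-values measure only the spread between these samples, and precision is limited by how many arrays there are. The alternatives were the authors' table, other background corrections, filters, batch and replicate blocks, array weights and each array left out.

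The members and lists were chosen with earlier results of these data known. Genes were named by rule: the members, the 8 genes most like Selp and 5 most like Ackr1. From each list the rule took those called and the 2 with the largest PCN estimate in Pxr-/- mice. A few further list members were added for their role, or to show a limit, after their values were seen. Of the genes this rule picks, 1 is not reported here. Probes were named through RefSeq accessions (32994 matched).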

Additional observations from a re-analysis of the deposited data

Results flagged for a closer look

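Of 60 groups of 4 or 5 arrays (15 probes in 4 groups), 5 had an array far from the others by Dixon's test at the 95% level, where chance alone flags about 1 in 20. These were Selp in Pxr-/- PCN replicate 1 (probe A_51_P211854, log2 signal 7.50, the lowest of its group), Ackr1 in WT PCN replicate 3 (8.25, the lowest, and among the 4 near-identical arrays), Icam1 with probe A_52_P613241 in Pxr-/- PCN replicate 3 (6.93, the highest), Vcam1 with probe A_52_P520495 in Pxr-/- PCN replicate 4 (6.54, the lowest) and Cdh5 in WT CONT replicate 4 (8.63, the lowest of a group with an SD of 0.01).

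For Madcam1, every WT PCN array lay below the mean of WT CONT and every Pxr-/- PCN array above that of Pxr-/- CONT. The PCN difference in Pxr-/- minus that in WT was 0.47 ± 0.22 (SE), and this difference was not tested, since PCN values chose the genes. The group means were close under PCN (6.54 in WT PCN and 6.55 in Pxr-/- PCN) and apart in controls (6.76 in WT CONT and 6.28 in Pxr-/- CONT).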

How the results depend on the processing

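The PCN differences of Selp and Ackr1 stayed above 0 under every alternative that was run, which is a description, since PCN values chose both genes. For Selp in Pxr-/- mice (1.40) the scanner's processed signal minus the 75th percentile gave 1.86, normexp background correction 1.16, and the other 2 probes 1.03 and 0.78. For Selp in WT mice (1.03) the processed signal gave 1.39 and the other probes 0.52 and 0.37. The other probes give no firm size to compare, since A_52_P57843 was well above background on 0 of 9 control arrays and A_66_P116477 on 1 of 5 of Pxr-/- CONT and 3 of 4 of WT CONT. The cause of these shifts was not tested. With each array left out in turn, Selp ran from 1.33 to 1.51 in Pxr-/- and 0.89 to 1.25 in WT mice, and Ackr1 from 0.63 to 0.72 and 0.28 to 0.48, the highest WT value in both without WT PCN replicate 3. The call of Selp in Pxr-/- mice was kept in 7 of 15 other settings and in 3 of 17 with an array left out. Nothing is read from this for Selp, since PCN values chose it. The number of probes called there ran from 0 to 26, the highest without WT PCN replicate 3. In WT mice it ran from 0 to 19, the highest without the 4 near-identical arrays.

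For genotype in CONT, 0 of 8 genes were called in every setting. Probes called there were 391 with array weights, 8 with only the groups of the contrast, 2 without WT PCN replicate 1, 1 without Pxr-/- CONT replicate 2 and 0 in all other settings. The sign of the Selp genotype difference turned within wash batch 1 (0.15), and ran from -0.14 to 0.048 with an array left out. For Vwf (-0.09) the probe A_55_P2169659 gave a genotype difference of 0.21. Replicate numbers did not pair the samples: deviations of same-numbered arrays correlated between -0.334 and 0.493 (median 0.100, 22 pairs). With a replicate block Selp had 1.39 in Pxr-/- and 1.03 in WT mice and Ackr1 0.66 and 0.32, and no probe was called in any PCN comparison. With the slide as a fixed block Selp had 1.47 and 0.93. Dim probes near background (Sele, and A_52_P57843 of Selp) limit what the arrays show.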
